A study of Mus musculus with 6 samples.

Results

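The genes described here are 8 transcription factors grouped under the name of quiescent, or resting, T cells: Tcf7, Lef1, Satb1, Foxp1, Foxo1, Foxo3, Ets1 and Myb. They were chosen by name, as the rows carrying these symbols in both tables of raw read counts, and all 8 were found among 26286 genes. The libraries hold RNA of regulatory T cells (Treg), CD4+ T cells that depend on the factor Foxp3 and restrain immune responses. CD4+ CD25high cells were sorted from spleens and lymph nodes, pooled before sorting, of C57BL/6 mice with a Blimp1/GFP reporter, whose green fluorescence follows the locus of the repressor Blimp-1. GFP- cells form one population and GFP+ cells the other, with 3 libraries each, and all 6 titles carry the prefix BlimpHet, which the labels do not explain. The labels state neither age nor sex nor how many mice went into a pool.

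Of each population, 1 library was made by poly(A) selection and 2 by an amplification protocol devised for single cells and applied here to sorted populations. Numbered as in their titles, the poly(A) libraries are GFP- 20 and GFP+ 19, and those of the single-cell protocol are GFP- 2 and 5 and GFP+ 1 and 4. The poly(A) libraries held 27221562 and 28354321 counts, the others between 15224051 and 17601420. The single-cell protocol table listed 0 counts for 99.8% to 100% of expressed genes on chromosomes 3, 8 and 9, against 1.58% elsewhere, and Lef1, Foxo1 (chromosome 3) and Ets1 (chromosome 9) are among them. For these 3 genes the poly(A) pair alone was used. Macrophage and myeloid markers were high in the GFP+ libraries, where 20 of them summed to 2079 CPM (counts scaled to the library total) in the poly(A) and 1157 to 1589 CPM in the single-cell protocol. In GFP- libraries they summed to 278 CPM in the poly(A) and 33.2 to 33.7 CPM in the single-cell protocol. The poly(A) GFP- value includes 237 CPM of Ctss, a protease gene that other immune cells also use, and each of the 20 had counts in both poly(A) libraries. The sum of 22 general T cell genes was 12028 CPM in GFP- and 12384 CPM in GFP+ of the poly(A) protocol. In the single-cell protocol it was 8629 and 11701 CPM in GFP- and 11505 and 12079 CPM in GFP+. The protocols are given apart because 4 of the 20 myeloid and 5 of the 22 T cell genes had no single-cell protocol counts.

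A resting T cell is held in its state by active transcription. TCF-1 (Tcf7) and LEF-1 (Lef1) are paired HMG-box proteins that bind the same DNA motif and keep naive and memory T cells able to renew. SATB1 organises chromatin in thymocytes and helps set up the Treg programme, and FOXP1 is a forkhead repressor that T cells need to stay quiescent. FOXO1 and FOXO3 are forkhead activators that kinases of the PI3K pathway push out of the nucleus when a T cell is stimulated, and FOXO1 drives genes of lymph node homing. ETS1 supports T cell survival, and MYB acts in thymocytes, in progenitor-like T cells and in effector Treg.

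Only short stretches of DNA bear on these genes here, since no binding was measured. They are shown because the factors bind known motifs that may lie near their own start sites. RefSeq start sites (GRCm38.p6) gave 17 windows for 7 of the 8 genes, each from 250 bases before to 50 bases after a start, with Ets1 not matched. The letters CTTTGA (TCF and LEF), GTAAACA (forkhead), CCGGAA (ETS) and TAACNG (MYB) were searched on both strands, and none of these motifs overlapped another in the windows printed. The TCF and LEF letters stood in 2 of the 17 windows, the forkhead letters in 2, the ETS letters in 1 and the MYB letters in 7. Over all 32851 windows of the same length the shares were 16%, 3.65%, 14.9% and 23.3%. Windows of neighbouring start sites of Lef1 and of Satb1 overlap and share a MYB match, so the 17 windows are not separate sequences. Of the most upstream windows of the 7 genes, 2 held the MYB letters, 1 the forkhead letters and 0 the others. The windows below are those of Tcf7, Lef1 and Myb that held the forkhead or the TCF and LEF letters, with matches in capitals. The Tcf7 window held a forkhead and an ETS match, the Lef1 window 2 TCF and LEF matches and 1 MYB match, and the Myb window 1 forkhead match.
Tcf7, chr11:52282546-52282845, minus strand: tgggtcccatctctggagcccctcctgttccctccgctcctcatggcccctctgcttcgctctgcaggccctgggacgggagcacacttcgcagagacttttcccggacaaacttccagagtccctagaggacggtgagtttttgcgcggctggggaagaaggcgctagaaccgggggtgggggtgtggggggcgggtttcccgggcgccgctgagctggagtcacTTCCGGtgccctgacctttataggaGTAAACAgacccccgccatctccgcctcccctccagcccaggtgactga
Lef1, chr3:131156044-131156343, plus strand: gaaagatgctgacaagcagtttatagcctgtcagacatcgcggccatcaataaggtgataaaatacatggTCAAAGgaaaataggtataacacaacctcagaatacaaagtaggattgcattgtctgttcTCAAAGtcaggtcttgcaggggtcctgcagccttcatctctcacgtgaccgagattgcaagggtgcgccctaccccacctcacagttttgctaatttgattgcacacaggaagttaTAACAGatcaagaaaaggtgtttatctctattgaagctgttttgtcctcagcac
Myb, chr10:21160935-21161234, minus strand: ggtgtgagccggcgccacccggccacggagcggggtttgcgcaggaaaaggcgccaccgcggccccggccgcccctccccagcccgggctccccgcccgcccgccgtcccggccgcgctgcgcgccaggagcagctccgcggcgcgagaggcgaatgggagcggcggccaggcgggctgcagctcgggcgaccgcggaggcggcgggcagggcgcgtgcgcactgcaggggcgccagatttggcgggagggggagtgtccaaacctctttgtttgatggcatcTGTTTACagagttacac
The Tcf7 window belongs to the more downstream of 2 start sites and the Lef1 window to the last of 4. The remaining windows with TCF and LEF letters were 1 of Foxp1's 3. A match describes the letters only.

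The factors did not move as one. Tcf7, Satb1 and Foxp1 were lower in GFP+ Treg in both protocols, Lef1 was lower in its only pair, Foxo1 was lower by less, Ets1 and Foxo3 were nearly level, and Myb was higher in both protocols without passing the test over all genes. Of the 8, 4 had enough counts for the fit to all 6 libraries (Tcf7, Satb1, Foxp1 and Myb). Of these 4, 3 were called lower and none higher, where 3.68% of all 10523 tested genes were called lower, 9.81% higher and 13.5% in either direction. The test was edgeR's quasi-likelihood F-test, with p adjusted by Benjamini-Hochberg and a threshold of 0.05. DESeq2, which also called Myb higher, gave 1201 higher and 714 lower genes, against 1032 and 387. The 4 genes had a median log2 fold change of -1.93, and all tested genes of -0.08. In bulk libraries, fewer cells that express a gene and less of its RNA per cell cannot be told apart.

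**Figure D1:**
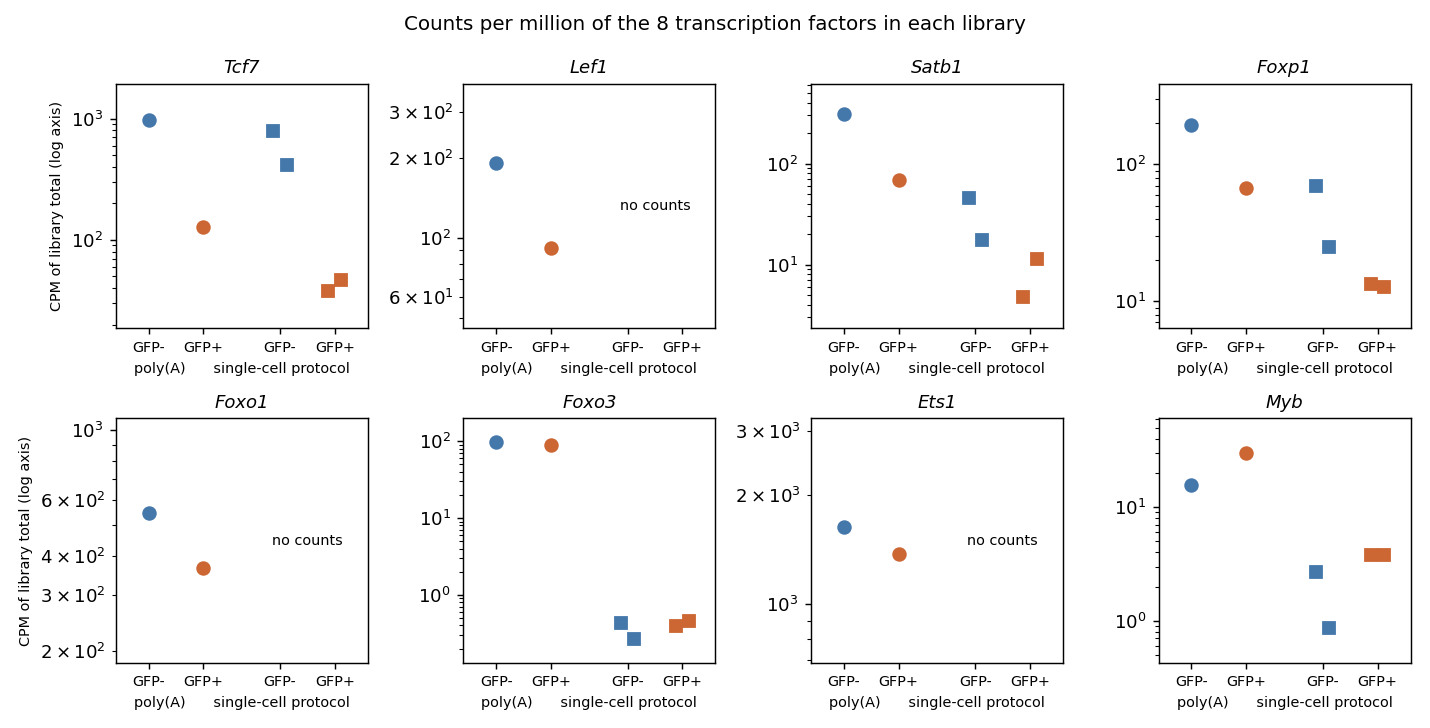
CPM of each library's total (log axis) for the 8 genes, with circles for poly(A) and squares for single-cell protocol libraries, GFP- in blue and GFP+ in orange. Tcf7, Satb1 and Foxp1 are lower and Myb is higher in GFP+ libraries of both protocols, while Lef1, Foxo1 and Ets1 have values in the poly(A) pair only.

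Tcf7 (Entrez 21414) fell furthest. It had 26482 counts in GFP- replicate 20 and 3600 in GFP+ replicate 19 of the poly(A) protocol. In the single-cell protocol it had 12896 and 6377 counts in GFP- replicates 2 and 5 and 660 and 826 in GFP+ replicates 1 and 4. Scaled by TMM, the GFP- levels were 575 CPM (replicate 20), 934 (2) and 807 (5), and the GFP+ levels 73.2 CPM (19), 54.0 (1) and 59.9 (4). The populations were far apart, with the lowest GFP- library well above the highest GFP+ library on this scale. Tcf7 had a log2 fold change of -3.62 ± 0.32 (SE, n = 3 per population, edgeR adjusted p = 0.000226), and 0.219% of tested genes had a value as low or lower. The single-cell protocol alone gave -3.95 ± 0.52 (edgeR, 2 libraries per population, adjusted p = 0.000502) and the poly(A) pair a log2 ratio of -2.94, with no replicate. The macrophage markers above were higher in the GFP+ libraries, where Tcf7 was lower. The general T cell genes had a median of -0.08, among them Cd4 (log2 fold change 0.02 ± 0.25), for which the cells were sorted. With libraries scaled to 17 general T cell genes in place of TMM, Tcf7 had -3.66 ± 0.33.

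Lef1 (Entrez 16842), the closest relative of Tcf7, had 5209 counts in GFP- replicate 20 and 2593 in GFP+ replicate 19. These are 191 and 91.4 CPM of the library totals, a log2 ratio of -1.07, with a counting interval from -1.13 to -0.997 (exact binomial, 95%, counting error only). The ratio is that of 1 library against 1 and carries no test of the populations. Lef1 thus differed by less than Tcf7 in the same pair, and per gene length the Tcf7 level was 5.59 times that of Lef1 in the GFP- library and 1.53 times in the GFP+ library.

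Satb1 (Entrez 20230) had 8415 counts in GFP- replicate 20 and 1942 in GFP+ replicate 19. In the single-cell protocol the counts were 741 and 268 in GFP- replicates 2 and 5 against 83 and 201 in GFP+ replicates 1 and 4. Replicates of the single-cell protocol differed more from each other than those of Tcf7, so that GFP- replicate 5 came near GFP+ replicate 4 in counts. On the TMM scale that gap was wider, with GFP- levels of 183 CPM (replicate 20), 53.7 (2) and 33.9 (5) and GFP+ levels of 39.5 CPM (19), 6.79 (1) and 14.6 (4). For Satb1 the estimated log2 difference was -2.10 ± 0.33 (SE, n = 3 per population, edgeR adjusted p = 0.00338). Both protocols gave about this size, -2.05 ± 0.45 in the single-cell protocol alone (edgeR adjusted p = 0.0139) and -2.17 in the poly(A) pair.

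Foxp1 (Entrez 108655) had 5285 counts in GFP- replicate 20 and 1902 in GFP+ replicate 19. In the single-cell protocol it had 1131 and 382 counts in GFP- replicates 2 and 5, and 235 and 225 in GFP+ replicates 1 and 4. The GFP+ libraries of a protocol lay below its GFP- libraries, and the GFP- replicates spread more widely than the GFP+ ones. TMM-scaled GFP- levels were 115 CPM (replicate 20), 81.9 (2) and 48.4 (5), and GFP+ levels 38.7 CPM (19), 19.2 (1) and 16.3 (4). The log2 estimate for Foxp1 was -1.77 ± 0.26 (SE, n = 3 per population, edgeR adjusted p = 0.00265), with -1.89 ± 0.41 in the single-cell protocol alone (edgeR adjusted p = 0.0128) and -1.53 in the poly(A) pair. Its relative Foxp3, the factor that defines Treg, had 0.21 ± 0.31 (edgeR adjusted p = 0.710).

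Tcf7, Satb1 and Foxp1 were also the 3 genes of the 8 called in the single-cell protocol libraries alone, where 1.41% of 10236 genes were called lower, 5.54% higher and 6.95% either way. Within a protocol the GFP+ and GFP- levels of these 3 did not overlap, and 19.3% of all tested genes were separated in this direction. Without the protocol as a covariate edgeR kept the call of Tcf7 (adjusted p = 0.0497) but not those of Satb1 (adjusted p = 0.574) and Foxp1 (adjusted p = 0.308).

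Foxo1 (Entrez 56458), the main FOXO factor of T cells, had 14852 counts in GFP- replicate 20 and 10380 in GFP+ replicate 19. This is 546 against 366 CPM of the library totals, a log2 ratio of -0.58 (counting interval -0.61 to -0.54), and 16.2% of genes in the pair had a lower ratio. Foxo3 (Entrez 56484) had 2691 and 2556 counts in the same libraries, 98.9 against 90.1 CPM, and a log2 ratio of -0.13 (counting interval -0.21 to -0.05). Per gene length, Foxo1 was 2.87 times as high as Foxo3 in the GFP- and 2.11 times in the GFP+ library. In the single-cell protocol Foxo3 nearly vanished. It had 7 and 4 counts in GFP- replicates 2 and 5 and 7 and 8 in GFP+ replicates 1 and 4, and its poly(A) level was 286 times the mean single-cell protocol level in GFP- and 211 times in GFP+ Treg. For Satb1, Foxp1, Myb and Tcf7 that factor lay between 1.61 and 9.81. Foxo3 therefore missed the filter on low counts, and without a filter edgeR gave a log2 fold change of -0.04 ± 0.37 (adjusted p = 0.974, n = 3 per population).

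Ets1 (Entrez 23871), the ETS factor of resting lymphocytes, had 44356 counts in GFP- replicate 20 and 39112 in GFP+ replicate 19, the highest counts of the 8 genes in both libraries. Its levels of 1629 and 1379 CPM gave a log2 ratio of -0.24 (counting interval -0.26 to -0.22). Of the genes in the pair, 34.9% had a lower ratio.

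Myb (Entrez 17863) had the lowest level of the 8 in the poly(A) libraries and was the one tested gene with a higher estimate in GFP+ Treg. It had 431 counts in GFP- replicate 20 and 860 in GFP+ replicate 19. In the single-cell protocol it had 44 and 13 counts in GFP- replicates 2 and 5 and 67 in each of GFP+ replicates 1 and 4. Within a protocol the GFP+ values exceeded the GFP- values without overlap, as those of 21.3% of tested genes did, and the GFP- replicates differed from each other more than the GFP+ ones. TMM-scaled GFP- levels were 9.37 CPM (replicate 20), 3.19 (2) and 1.65 (5), and GFP+ levels 17.5 CPM (19), 5.48 (1) and 4.86 (4). Myb's log2 estimate was 0.99 ± 0.29 (SE, n = 3 per population, edgeR adjusted p = 0.0572), just short of the threshold. DESeq2 (adjusted p = 0.0187), limma-voom (0.0489), RLE size factors (0.048), no filter on low counts (0.0142) and leaving out GFP- replicate 2 (0.0469) each brought it past, so whether Myb was called depended on the processing. The single-cell protocol alone gave 1.05 ± 0.49 (edgeR adjusted p = 0.320) and the poly(A) pair 0.94.

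**Figure D2:**
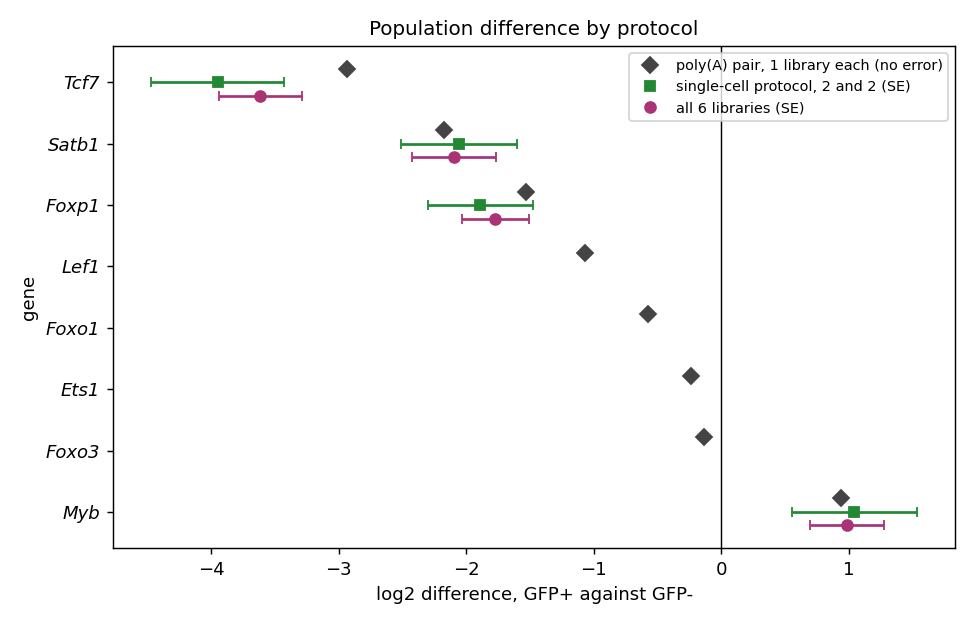
Log2 difference between GFP+ and GFP- Treg for each gene (horizontal axis), as the ratio of the poly(A) pair (diamonds, 1 library each), the edgeR estimate in the single-cell protocol (squares, SE) and in all 6 libraries (circles, SE). Estimates run from -3.95 for Tcf7 to 1.05 for Myb, and for the 4 tested genes the direction is the same in both protocols.

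The size of the population difference was compared between protocols by an interaction term. The single-cell protocol minus poly(A) difference was -0.96 ± 0.80 for Tcf7, -0.31 ± 0.68 for Foxp1, 0.18 ± 0.76 for Satb1 and 0.16 ± 0.77 for Myb on the log2 scale (SE). None was called, nor was any of 10523 genes (0% with edgeR, 2 residual degrees of freedom; 24 genes had an unadjusted p below 0.05). With 1 poly(A) library per population this term could find only large differences, so the lack of calls does not show that the protocols agree. In the poly(A) pair, read for all 8 genes alike, 4 were at least 2-fold lower in GFP+ Treg (Tcf7, Satb1, Foxp1 and Lef1) and none 2-fold higher, where 6.35% of 14622 genes were at least 2-fold lower and 13.2% higher. The median log2 ratio was -0.82 over the 8 genes and -0.06 over all genes of the pair.

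Levels of different genes were compared per kilobase of the length given in the authors' table. In GFP- replicate 20 the order was Tcf7 with 435 CPM per kilobase, Ets1 with 322, Foxo1 with 98.3, Foxp1 with 91.7, Lef1 with 77.8, Satb1 with 45.5, Foxo3 with 34.2 and Myb with 4.63. In GFP+ replicate 19 Ets1 came first with 273 CPM per kilobase, followed by Foxo1 with 65.9, Tcf7 with 56.7, Lef1 with 37.2, Foxp1 with 31.7, Foxo3 with 31.2, Satb1 with 10.1 and Myb with 8.87. Tcf7 thus went from the highest of the 8 to below Ets1 and Foxo1, and Satb1 came close to Myb. With 1 library each, no spread can be given to this order, and neighbours such as Foxo1 and Foxp1 in the GFP- or Foxp1 and Foxo3 in the GFP+ library differ by little.

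The single-cell protocol gave the order Tcf7, Foxp1, Satb1, Myb and Foxo3 in all 4 libraries, over the 5 genes with counts there. Tcf7 stood at 353 and 187 CPM per kilobase in GFP- replicates 2 and 5, and at 16.8 and 21.0 in GFP+ replicates 1 and 4. The ratio of Satb1 to Myb per length does not depend on the scaling between libraries. The lengths used differ between the tables, so it is compared within a protocol. It was 9.84, 16.8 and 20.6 in GFP- replicates 20, 2 and 5 and 1.14, 1.24 and 3.0 in GFP+ replicates 19, 1 and 4. Every GFP- library had the larger ratio. The ratio of Satb1 to Foxp1 was 0.497, 0.463 and 0.495 in the GFP- libraries and 0.319, 0.249 and 0.631 in the GFP+ libraries, in the same replicate order. These overlapped, so the fall of Satb1 and that of Foxp1 were not separated. The Tcf7 to Foxp1 ratio did separate, at 4.74, 10.8 and 15.8 in GFP- and 1.79, 2.66 and 3.47 in GFP+ libraries.

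**Figure D3:**
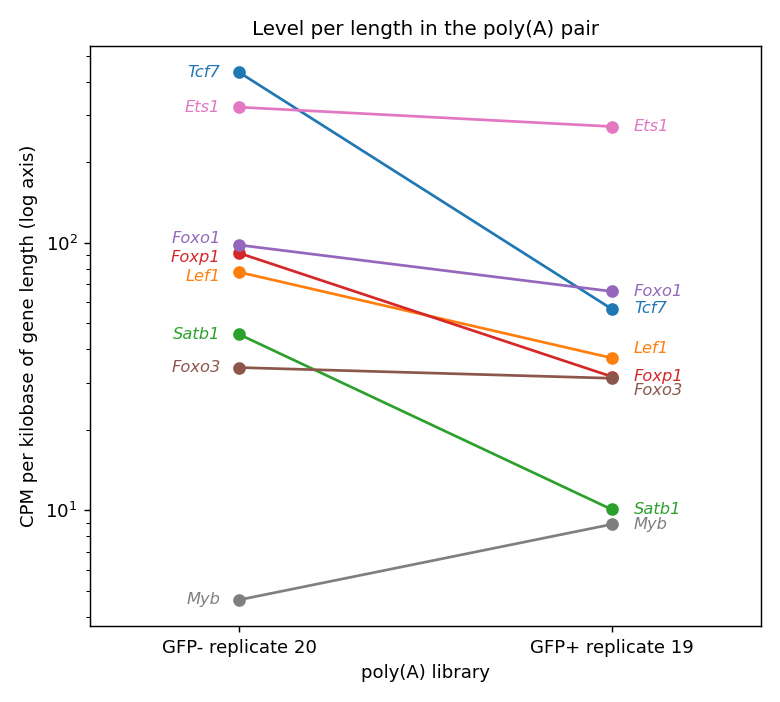
CPM per kilobase of gene length (log axis) of the 8 genes in the poly(A) libraries GFP- replicate 20 and GFP+ replicate 19, with a line for each gene. Tcf7 drops from 435 to 56.7 and crosses Ets1 and Foxo1, Satb1 drops to 10.1, and Myb is the one line that rises, from 4.63 to 8.87.

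For each tested factor the genes with the nearest profile over the 6 libraries were sought among 5974 genes (5975 for Myb) with a mean of at least 10 CPM, by the root mean square difference of log2 CPM centred within each protocol. Among the nearest to Tcf7 were Dnah7a (0.229) and Nsg2 (0.293). Nearest to Satb1 were St8sia6 (0.199), Synpo (0.274) and H2-Ob (0.278). Foxp1 had much closer neighbours, namely the carnitine transporter gene Slc22a5 (0.0350), Pdk1 (0.0657) and Asap1 (0.0848). Myb was nearest to Fam126a (0.0270), Antxr2 (0.0788) and Aebp2 (0.0841). Genes with a smaller fold change have closer neighbours by this measure, and a near profile over 6 libraries says nothing of shared control.

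Relatives of the factors went several ways. Of 5 tested HMG-box relatives Tcf7l1 fell (log2 fold change -1.77 ± 0.33) while Tcf7l2 (2.02 ± 0.44) and Tox2 (1.41 ± 0.26) rose, and Tox (0.78 ± 0.22) and Tox4 (-0.07 ± 0.20) did not pass. Of 10 tested forkhead genes Foxm1, a driver of mitotic genes, rose (1.87 ± 0.27) and Foxn3, a checkpoint repressor, fell (-1.32 ± 0.26). The other 8 did not pass, among them Foxk1 (-0.69 ± 0.21) and Foxp4 (-0.11 ± 0.26). Of 13 tested ETS genes the myeloid factors Spi1 (3.39 ± 0.31) and Spic (5.64 ± 0.48), itself counted among the macrophage markers, rose. Elk4 fell (-1.16 ± 0.28), and 10 did not pass, Elf4 (0.62 ± 0.26) and Elf1 (-0.00 ± 0.21) among them. Fli1, the ETS gene next to Ets1 in mouse and human genomes, had a log2 ratio of 0.40 in the poly(A) pair. Mybl2, the MYB factor of dividing cells, rose (1.68 ± 0.30). The calls in this and the next 3 paragraphs are of edgeR at an adjusted p below 0.05, with n = 3 per population. Over all 10523 tested genes 3.68% were called lower and 9.81% higher, with a median log2 fold change of -0.08. The lists were chosen with earlier results of these data known.

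TCF-1 and LEF-1 act with beta-catenin or with Groucho repressors. Of 12 tested genes of these partners, their cofactors and the control of beta-catenin, 10 did not pass (list median -0.13). Among those 10, Aes (-0.17 ± 0.27) and Csnk1a1 (-0.16 ± 0.23) had the highest mean TMM-scaled CPM over the 6 libraries, an order that differs in the poly(A) pair. Jup, or gamma-catenin (3.62 ± 0.38), and Ctnnbip1, an inhibitor of the contact between beta-catenin and TCF (1.86 ± 0.41), rose. Ctnnb1, which encodes beta-catenin, and the Groucho gene Tle3 had log2 ratios of -0.13 and -0.42 in the poly(A) pair. Of the Wnt feedback genes, which beta-catenin and TCF activate in many tissues, 3 were tested. Rnf43 rose (0.87 ± 0.21), and Axin2 (0.69 ± 0.30) and Znrf3 (-1.31 ± 0.37) did not pass.

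Of 17 tested genes known as FOXO targets 5 fell and none rose (list median -0.30). Among these were the homing receptor gene Ccr7 (log2 fold change -3.84 ± 0.44), the PI3K inhibitor gene Pik3ip1 (-1.59 ± 0.22), Bcl6 (-1.10 ± 0.29), the repressor that follicular helper T cells depend on, and Bcl2l11 (-1.03 ± 0.26), which encodes the death factor BIM. Il7r, the interleukin-7 receptor gene, was at 0.66 ± 0.23 and Sesn1 at -0.66 ± 0.22, neither past the threshold. S1pr1, the receptor for exit from lymph nodes, and Klf2, its activator, had log2 ratios of -0.73 and -0.72 in the poly(A) pair. Of 16 tested genes of the PI3K and AKT pathway that controls FOXO, Sgk1, a kinase that phosphorylates FOXO proteins, rose (2.38 ± 0.23), and Sgk3 (-1.69 ± 0.32) and the PI3K subunit gene Pik3r5 (-0.76 ± 0.21) fell. The other 13 did not pass. Akt1 had 0.90 ± 0.26, and the FOXO-binding 14-3-3 gene Ywhaz 0.29 ± 0.27.

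Of 24 tested further genes of quiescent and naive T cells 7 fell, 2 rose and 15 did not pass (list median -0.56). Among the falls were Igfbp4 (log2 fold change -6.24 ± 0.49), Nsg2 (-4.17 ± 0.30) and Bach2, a repressor of effector genes (-3.14 ± 0.34). The 2 that rose are inhibitors of the cell cycle, Cdkn1a (2.98 ± 0.34) and Cdkn2c (2.29 ± 0.28). Of those that did not pass, the 2 with the highest mean TMM-scaled CPM over the 6 libraries (an order that also differs in the poly(A) pair) were Dgka (-1.33 ± 0.41), which dampens T cell receptor signals, and Slfn2 (-0.88 ± 0.33). Of 16 tested general T cell genes 2 fell, among them Themis (-1.92 ± 0.31), and none rose. The other 14 did not pass, Lck (-0.35 ± 0.38) and Ptprcap (0.41 ± 0.37) among them. All 15 tested macrophage and myeloid markers rose, with a median of 5.64. Their part in the differences above was not tested.

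**Figure D4:**
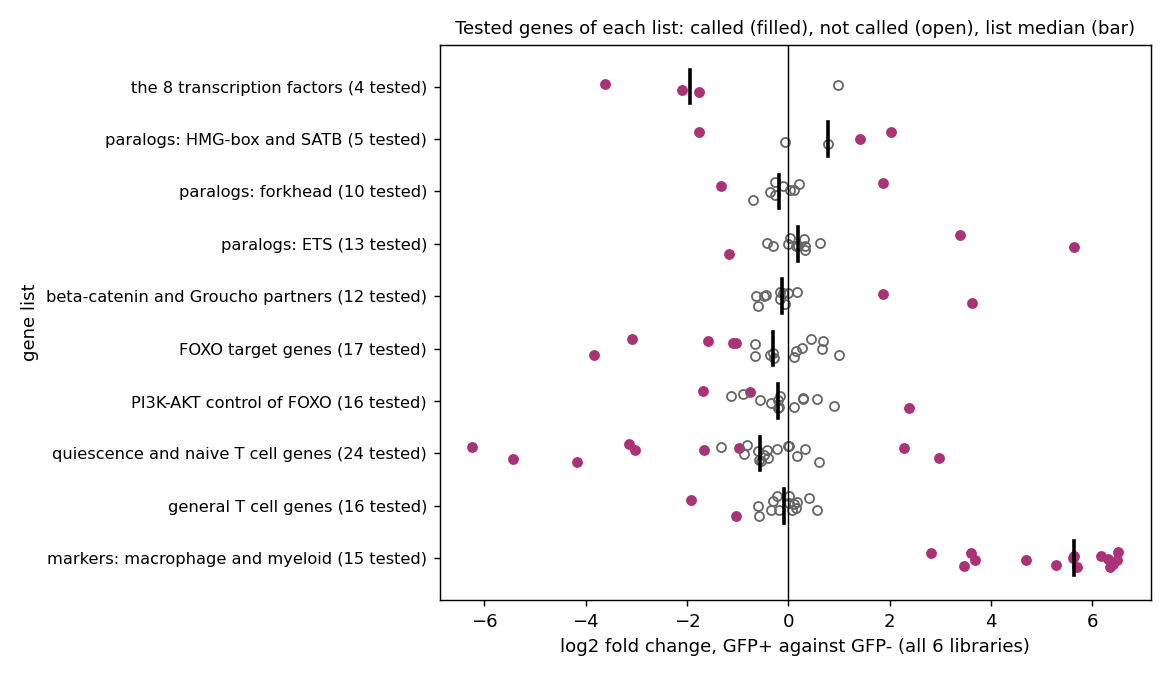
Log2 fold change between GFP+ and GFP- Treg (horizontal axis, all 6 libraries, edgeR) of each tested gene in 10 lists, filled where called, with a bar at the list median. The tested factors have a median of -1.93, the general T cell genes of -0.08 and the myeloid markers of 5.64.

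Across 9 other ways of processing and 6 fits with 1 library left out, the direction of Tcf7, Satb1, Foxp1 and Myb was the same in each. Estimates ranged from -3.95 to -3.47 for Tcf7, from -2.46 to -1.86 for Satb1, from -1.93 to -1.52 for Foxp1 and from 0.80 to 1.16 for Myb.

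**Figure D5:**
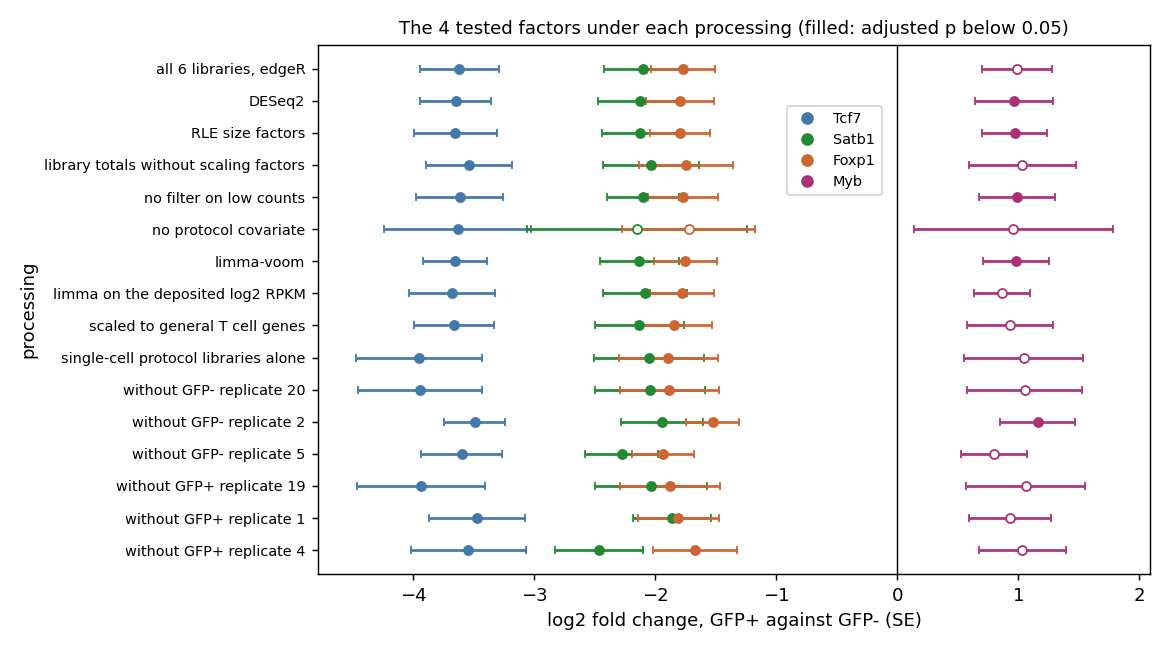
Log2 fold change with SE (horizontal axis) of Tcf7, Satb1, Foxp1 and Myb under each processing (vertical axis), filled where the adjusted p was below 0.05. Tcf7 is filled in each, Satb1 and Foxp1 in each but the fit without the protocol covariate, and Myb in 5.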

How the data were processed

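RNA of sorted GFP- and GFP+ Treg was sequenced in 6 libraries after column purification and poly(A) selection or a single-cell approach, per the labels' protocols. Raw counts were deposited by the authors as a table for each protocol, keyed by Entrez number, per the file headers. Gene lengths in the single-cell protocol table do not exceed 3000 bases. The submitters' processing notes name Subread, featureCounts, edgeR and mm9. Neither versions nor strandedness are stated there, so reads of overlapping or antisense genes may be shared. The authors also deposited log2 RPKM values, used only as an alternative. Their sorted values were nearly equal in all libraries, and their slope on log2 RPKM from the counts was between 0.765 and 1.28, so their differences are on another scale.

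The 26286 genes of both tables were joined by Entrez number. In edgeR 4.0.16 (R 4.3.3), filterByExpr by population kept 10523 genes, TMM scaled the libraries (factors 2.02 and 2.06 for poly(A), 0.519 to 0.846 for the others), and the quasi-likelihood F-test compared populations with protocol as covariate (3 residual degrees of freedom). Benjamini-Hochberg adjustment covered every tested gene (threshold 0.05). SE were derived from the F statistic. The single-cell protocol libraries were also tested alone, and an interaction term compared protocols. The poly(A) pair was read as a CPM ratio of library totals for genes with at least 20 counts in the pair, with exact binomial intervals at 95% that cover counting error only. DESeq2 1.42.0, limma 3.58.1, other scalings and filters, and leaving out each library were alternatives. Chromosomes came from RefSeq (GRCm38) by Entrez number. Since the authors' build is mm9, gene coordinates are not given, and promoter windows carry those of RefSeq.

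No library pair matched within sampling noise (chi-square per degree of freedom at least 88.9). The design text describes the 3 samples of each condition as independent. The p-values rest on the spread between them, which edgeR moderates with that of the other tested genes. The members, lists and rules were chosen with earlier results of these data known. Named are the 8 factors, per list up to 4 genes of smallest p and 2 abundant ones not called, genes that complete a short count, and the 3 nearest profiles per factor. Some genes that this rule selects are not reported here.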

Additional observations from a re-analysis of the deposited data

How the results depend on the processing

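Tcf7 was called lower under every alternative run, and Satb1 and Foxp1 under each but the fit without the protocol covariate, where Satb1 had a log2 fold change of -2.15 and Foxp1 -1.72. Myb became a call with DESeq2 (0.97), RLE size factors (0.97), no filter (0.99), limma-voom (0.98) and without GFP- replicate 2. Leaving out 1 library gave -3.94 to -3.47 for Tcf7, -2.46 to -1.86 for Satb1, -1.93 to -1.52 for Foxp1 and 0.80 to 1.16 for Myb. Without a poly(A) library, the other no longer informs the population effect. Scaling to general T cell genes left all 4 on their side of the threshold.

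Counts of called genes moved more. Higher and lower genes numbered 1032 and 387 in the fit to all 6 libraries, 1201 and 714 with DESeq2 (72.7% against 62.7% higher), 1636 and 858 with no filter among genes with single-cell protocol counts, 115 and 24 without the protocol covariate, and 567 and 144 in the single-cell protocol alone. With 1 library left out they ranged from 569 to 1359 and from 140 to 797. The lowest numbers came without GFP+ replicate 19 (569 higher, 152 lower) and GFP- replicate 20 (602 and 140), and 185 were lower without GFP+ replicate 1, while 618 and 797 were lower without GFP- replicates 2 and 5. These counts are out of different numbers of tested genes. Tested were 10523 genes in the fit to all 6 libraries, 16214 with no filter and 10236 in the single-cell protocol alone. Without a poly(A) library 10650 to 10672 were tested, and without a single-cell protocol library 13598 to 13694.

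In the poly(A) pair the authors' deposited log2 RPKM gave differences of -4.60 for Tcf7, -2.78 for Satb1, -2.20 for Foxp1, -1.51 for Lef1, -0.95 for Foxo1 and -0.27 for Ets1, on a scale stretched in these libraries (slopes 1.24 and 1.28). TMM on the pair moved Foxo1 to -0.53 and Ets1 to -0.20. Genes at least 2-fold lower numbered 929 of the 14622 with at least 20 counts in the pair (6.35%). With no minimum count they numbered 2845, out of a larger set that adds genes with very few counts. No paired analysis was run, because no label states a pairing and the titles of the GFP- and GFP+ samples share no replicate number. Whether GFP- and GFP+ samples with neighbouring title numbers were sorted together is not stated, so a pairing may exist that the fits ignore. Lef1, Foxo1 and Ets1 rest on 1 library per population, and Foxo3 had 4 to 8 counts per library in the single-cell protocol.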

Other observations

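Other lists checked in the same libraries are given as values only. Of 8 tested Treg identity genes Ctla4 rose and Lrrc32 fell, with a list median log2 fold change of 0.41. Ikzf2, the factor Helios, was at 0.60 ± 0.23 and Il2ra at -0.64 ± 0.23 (neither called by edgeR). In the poly(A) pair, which also covers 3 genes without single-cell protocol counts, the median log2 ratio of 11 Treg identity genes was -0.27. Of 7 tested B cell genes Blk rose (median 0.31), and of 4 tested plasma cell genes Sdc1 rose (median 1.59). Of 3 dendritic cell genes Itgax rose (median 1.22), and of 4 natural killer cell genes Nkg7 rose and Ncr1 fell (median 0.35). The summed level of erythroid genes, mostly globins, was 59.1 CPM in GFP- replicate 20, 137 in 2 and 308 in 5, and 178 CPM in GFP+ replicate 19, 728 in 1 and 1417 in 4, with 2 of 4 tested genes called higher. Both CD8 genes were tested, and Cd8a fell (-0.99 ± 0.23).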
